A study of Arabidopsis thaliana with 12 samples.

Results

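The genes described here are those that abscisic acid (ABA) raised clearly in wild-type Arabidopsis thaliana seedlings and raised less, or not at all, in cdk8 mutant seedlings. They number 108 of the 33602 genes counted. Counts were scaled to CPM, counts per 1000000 assigned fragments of the library, and averaged over the libraries of a group, and the level was taken as log2(mean CPM + 1). The response to ABA was the level after ABA minus the level after mock. A gene belonged if its response in wild type was at least 1.5 and its response in cdk8 was lower than that by 1 or more. All 12 libraries went into this choice, so the differences between the groups are descriptions of the genes chosen and carry no test. The 4 groups, with 3 libraries each, were cdk8 seedlings given 50 µM ABA for 3 h, wild-type seedlings given the same, cdk8 seedlings given mock treatment and wild-type seedlings given mock treatment. All were whole seedlings of 1 week. The labels do not name the cdk8 allele. The count columns call the mock libraries 0h, so ABA and mock libraries may also differ by 3 h of time and handling, and these cannot be told apart. In whole seedlings fewer cells of a type and less RNA per cell cannot be told apart either. Nothing in the labels says that the 3 libraries of a group came from separate sets of plants.

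ABA is the hormone that plants make under drought and in maturing seeds. Its receptors of the PYR/PYL family bind and block clade A protein phosphatases of type 2C (PP2C), which frees SnRK2 kinases to phosphorylate ABF-type transcription factors; these bind the ABA-responsive element (ABRE) in promoters such as that of LTI65, also called RD29B. CDK8 is the cyclin-dependent kinase of the Mediator kinase module, a detachable part of the complex that passes signals from transcription factors to RNA polymerase II. The study's title places CDK8 with the factor RAP2.6 and the kinase SnRK2.6 as a positive modulator of ABA signalling and drought response.

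CDK8 itself, listed as CDKE;1 (AT5G63610), had 10.8, 5.39 and 9.59 CPM in cdk8 ABA libraries, 27.4, 28.1 and 26.1 CPM in wild-type ABA libraries, 5.24, 9.22 and 6.21 CPM in cdk8 mock libraries and 22.2, 19.6 and 20.5 CPM in wild-type mock libraries. Every cdk8 library lay below every wild-type library. Each library held between 17675785 and 27415053 assigned fragments, and the cdk8 ABA libraries were the deepest, with at least 24292745. Summed leaf and photosynthesis markers (10 genes) were between 25863 and 67012 CPM and summed root markers (18 genes) between 181 and 463 CPM, so RNA of shoots and roots was present in every library. The leaf markers summed to 37933, 31033 and 35991 CPM in cdk8 ABA libraries, 25863, 30637 and 26210 CPM in wild-type ABA libraries, 63537 to 67012 CPM in cdk8 mock libraries and 62419 to 64996 CPM in wild-type mock libraries. They were thus lower after ABA in both genotypes, and after ABA every cdk8 library lay above every wild-type library; the part of this shift in the members' differences was not tested. Root markers overlapped between the genotypes under either treatment. Wild-type ABA replicate 3 stood apart: 10 immune-response markers summed to 173 CPM there, against 30.6 CPM in replicate 1 and 33.9 CPM in replicate 2 of the same group and 27.8, 63.3 and 40.3 CPM after ABA in cdk8. The member PR1 is 1 of these markers and alone made up 104 CPM of the 173 CPM. The cdk8 ABA replicate 2, the highest of its 3 libraries for these markers, is also treated here as standing apart. That ground is weak, since 1 library of any 3 is the highest. The markers also differed among cdk8 mock libraries, at 156, 102 and 267 CPM, and none of those was set apart. Without wild-type ABA replicate 3 the same rule picks 97 genes, 84 of them among the 108, and without both libraries it picks 101 genes, 87 of them among the 108. Of the 108 genes, 62 stayed whichever of the 12 libraries was left out.

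The sequence before the gene's start was not used by the rule. It is shown for 5 members: the ABA markers LTI65 and HAI2, the senescence-linked sugar exporter gene SAG29, and the neighbouring glycosyltransferase genes AT2G36780 and AT2G36770. These are the 250 bases before the start of the gene in the RefSeq annotation of TAIR10.1, 5′ to 3′ on the gene's strand. Capitals mark ACGTG or its reverse complement CACGT, the core of the ABRE. The windows are chr5:21236771-21237020 on the plus strand for LTI65, chr1:2282829-2283078 on the minus strand for HAI2, chr5:4183355-4183604 on the minus strand for SAG29, chr2:15419392-15419641 on the minus strand for AT2G36780 and chr2:15416846-15417095 on the minus strand for AT2G36770.
LTI65: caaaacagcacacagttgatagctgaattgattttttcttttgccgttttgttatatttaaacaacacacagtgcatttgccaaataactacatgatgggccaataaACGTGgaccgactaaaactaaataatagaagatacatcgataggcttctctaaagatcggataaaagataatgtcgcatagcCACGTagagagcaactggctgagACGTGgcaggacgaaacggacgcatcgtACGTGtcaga
HAI2: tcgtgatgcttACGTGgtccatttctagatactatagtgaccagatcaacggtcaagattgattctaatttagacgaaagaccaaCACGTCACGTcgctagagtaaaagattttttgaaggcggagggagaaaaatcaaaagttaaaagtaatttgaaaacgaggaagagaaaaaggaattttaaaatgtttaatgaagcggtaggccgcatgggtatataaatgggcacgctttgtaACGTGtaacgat
SAG29: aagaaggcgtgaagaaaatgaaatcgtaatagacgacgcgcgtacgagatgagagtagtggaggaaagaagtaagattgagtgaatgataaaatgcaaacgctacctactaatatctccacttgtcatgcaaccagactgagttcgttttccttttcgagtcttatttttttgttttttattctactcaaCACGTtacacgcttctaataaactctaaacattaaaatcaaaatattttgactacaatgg
AT2G36780: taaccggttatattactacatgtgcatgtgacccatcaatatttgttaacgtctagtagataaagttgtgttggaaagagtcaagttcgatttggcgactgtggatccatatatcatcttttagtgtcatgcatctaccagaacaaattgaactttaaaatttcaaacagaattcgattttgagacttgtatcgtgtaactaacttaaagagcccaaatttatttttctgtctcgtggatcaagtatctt
AT2G36770: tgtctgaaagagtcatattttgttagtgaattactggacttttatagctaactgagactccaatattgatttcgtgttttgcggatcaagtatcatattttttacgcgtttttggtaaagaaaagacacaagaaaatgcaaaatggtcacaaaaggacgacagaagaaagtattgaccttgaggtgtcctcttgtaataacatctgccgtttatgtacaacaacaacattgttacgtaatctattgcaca
LTI65 and HAI2 each held 4 cores in this window, SAG29 held 1, and neither AT2G36780 nor AT2G36770 held any, although AT2G36780 had a wild-type response of 6.07, close to the 6.71 of LTI65 (log2(mean CPM + 1)). No match says only that these letters are not in this window.

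Over windows of 300 bases (250 before and 50 after the start), ACGTG on either strand was found in 52 of the 108 members, or 48.1%. It was found in 47.1% of the 910 other genes with a wild-type response of at least 1.5 and a RefSeq start, and in 26.7% of all 27443 promoters. The G-box CACGTG, which contains the ABRE core, was found in 14.8% of members, 20% of the other ABA-raised genes and 7.68% of all promoters. TTGAC, the core of the W-box bound by WRKY factors, was found in 67.6% of members, 53.0% of the other ABA-raised genes and 50.5% of all promoters. In the 250 bases before the start the W-box core was in 63.0% of members, 46.6% of the other ABA-raised genes and 44.9% of all promoters. The remaining motifs, again on both strands, are given as the share of members, of the other ABA-raised genes and of all promoters. They were the GCC box GCCGCC (3.70%, 2.64% and 2.57%), the DRE core CCGAC (16.7%, 20% and 15.05%), the heat shock element GAANNTTC (15.7%, 12.1% and 11.6%) with its extended form (0%, 1.65% and 0.481%), the evening element AAAATATCT (3.70%, 5.93% and 2.82%) and the RY core CATGCA (14.8%, 10.7% and 9.72%). The G-box, the DRE core, the evening element and the extended heat shock element were thus found in a smaller share of members than of the other ABA-raised genes. These shares are descriptions, and a match is not a bound site.

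After ABA the 108 members were expressed far less in cdk8 than in wild type, while their levels after mock were similar in the middle of the list. The median of the members' mean CPM was 13.9 in cdk8 ABA, 46.8 in wild-type ABA, 4.22 in cdk8 mock and 3.89 in wild-type mock. The mean level in cdk8 ABA was between 1.88% and 76.4% of that in wild-type ABA, with a median of 32.4%. The median ABA response was 1.14 in cdk8 and 2.58 in wild type on the log2(mean CPM + 1) scale. By library, the median of log2(CPM + 1) over the members was 3.93, 4.01 and 3.92 in cdk8 ABA, 5.67, 5.35 and 5.69 in wild-type ABA, 2.65, 2.33 and 2.26 in cdk8 mock and 2.38, 1.82 and 2.45 in wild-type mock. So the ABA libraries of the genotypes were apart, and the mock libraries overlapped. The same median over all 21151 genes tested lay between 3.91 and 4.09 in every library.

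**Figure D1:**
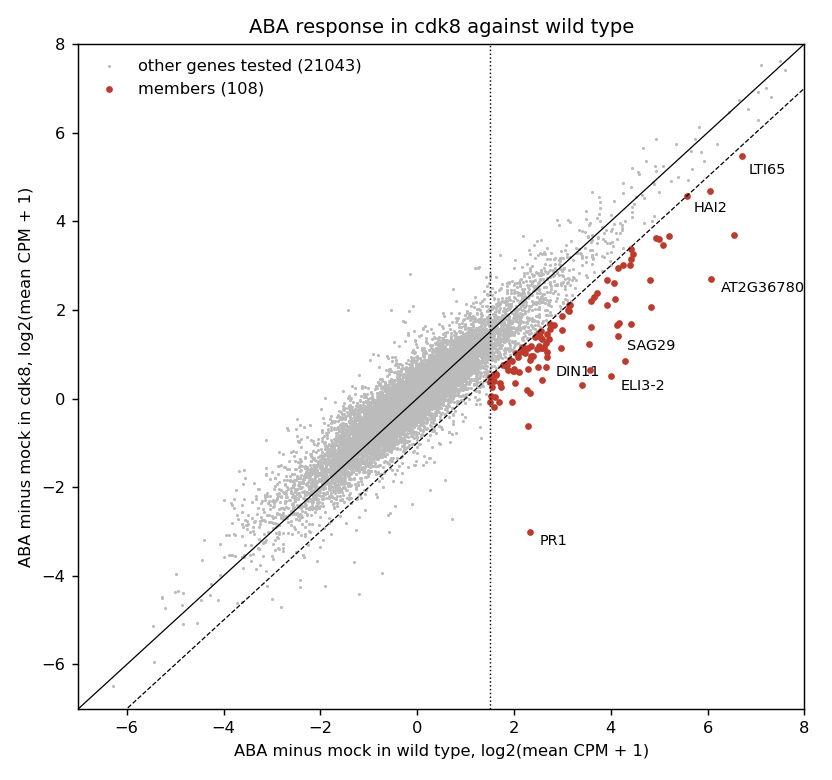
ABA response (level after ABA minus level after mock, log2(mean CPM + 1)) in cdk8 on the vertical axis and in wild type on the horizontal axis, for the 108 members (red) and the other genes tested (grey). The solid line is an equal response, the dashed line a response lower by 1 in cdk8, and the dotted line the wild-type limit of 1.5; by the rule, all members lie right of the dotted and on or below the dashed line, and PR1 is the lowest of them.

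The difference between the responses (cdk8 minus wild type) ran from −5.35 to −1.002 over the members, with a median of −1.36, beside a median of 0.10 over all genes tested and −0.24 over the 1032 genes with a wild-type response of at least 1.5. Near the limit of −1, the members just inside were OCT5 (−1.01), MYB122 (−1.004) and HAI2 (−1.002), and the genes just outside were NAC083, AT3G21690 and AT1G69480, all at −0.99. Near the wild-type limit of 1.5, AT1G02470 (1.51), BRU6 (1.54) and TDT (1.55) were inside, and AT5G45950 (1.49), AT5G65660 (1.46) and AT1G68440 (1.43) were outside. All 108 members passed the filter on low counts (filterByExpr of edgeR). In the quasi-likelihood fit of edgeR over all genes tested, 65 members were called for a weaker response at a Benjamini-Hochberg adjusted p under 0.05, and 2.85% of all genes tested were called for a negative difference. No member was called for a positive difference, against 2.37% of genes tested. Over all genes the sign alone is meant, since a negative difference can be a smaller rise or a larger fall in cdk8. The rule used the same contrast, so these counts only describe the list.

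ABA still raised most members in cdk8. The fit called 82 members higher after ABA in cdk8 (30.6% of genes tested) and 107 in wild type (31.9%); PR1 was the exception in wild type. In cdk8, 38 members had a response of at least 1.5 (4.48% of genes tested), 20 had a response under 0.5 (77.7%) and 6 had one under 0 (47.8%). The 6 were PR1, the N-acetyltransferase gene NATA1, AT5G15500 (ankyrin repeats), the senescence marker SAG13, the vacuolar sugar transporter gene SWEET2 and the cell-death suppressor gene BAP2. All cdk8 ABA libraries were above all cdk8 mock libraries for 86 members (36% of genes tested), and all were below them for 0 members (31.7%). In wild type all ABA libraries were above all mock libraries for 107 members (30% of genes tested).

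**Figure D2:**
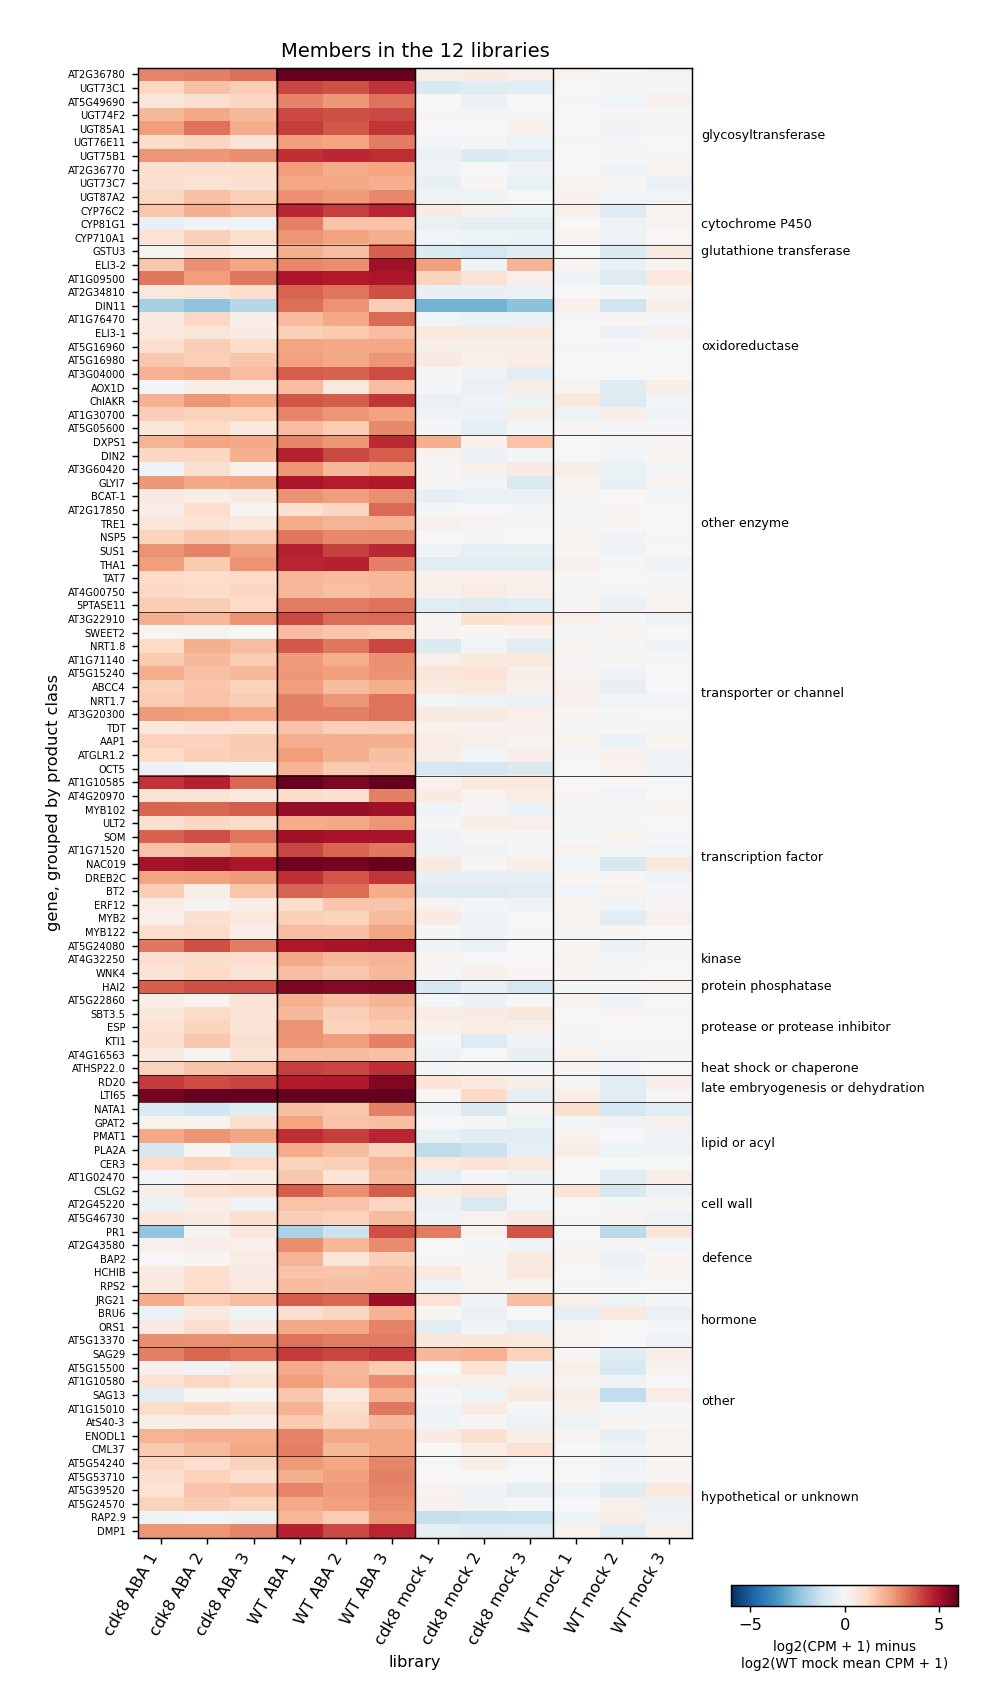
Each row is a member and each column a library, in the order cdk8 ABA, wild-type ABA, cdk8 mock and wild-type mock. Colour is log2(CPM + 1) minus the level of the wild-type mock mean, and saturates beyond −6 and 6; rows are grouped by class of product and then by the difference between responses. The wild-type ABA columns are the darkest for nearly every class, the cdk8 ABA columns are paler, and PR1, ELI3-2, DXPS1 and SAG29 are also raised in cdk8 mock libraries.

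A weaker response can come with a lower level after ABA, with a higher starting level, or with both, and the rule ties the start and the end of each member together. After ABA, all 3 cdk8 libraries lay below all 3 wild-type libraries for 103 members (12.6% of genes tested); the exceptions were CER3, PR1, CML37, AT1G15010 and AT2G17850. The fit called 103 members lower in cdk8 after ABA (13% of genes tested), and here the exceptions were PR1, ELI3-2, CML37, LTI65 and ENODL1. The level after ABA was lower by at least 1 in 87 members (1.79%), with a median difference of −1.46 over the list, 0.09 over all genes tested and −0.37 over the genes with a wild-type response of at least 1.5. After mock the median difference was −0.03 over the list and 0.00 over all genes tested. The cdk8 start was within 0.5 of the wild-type start in 76 members (88.7% of genes tested), at least 0.5 higher in 16 (3.6%) and at least 0.5 lower in 16 (7.74%). In the fit, 12 members were higher in cdk8 after mock (5.15%) and 11 were lower (8%). All 3 cdk8 mock libraries lay above all 3 wild-type mock libraries in 20 members (18.9% of genes tested). They lay below them in 22 members (19.1%). The shares of members, 18.5% and 20.4%, were near those over all genes tested, so nothing is read from such gaps after mock. Of the 76 members with a similar start, 62 were at least 1 lower after ABA in cdk8, and of the 16 with a higher start, 9 were. The rule fixes the remaining cases, since a member with a lower start must end at least 1 lower, and a member that ends less than 1 lower must have started higher in cdk8.

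**Figure D3:**
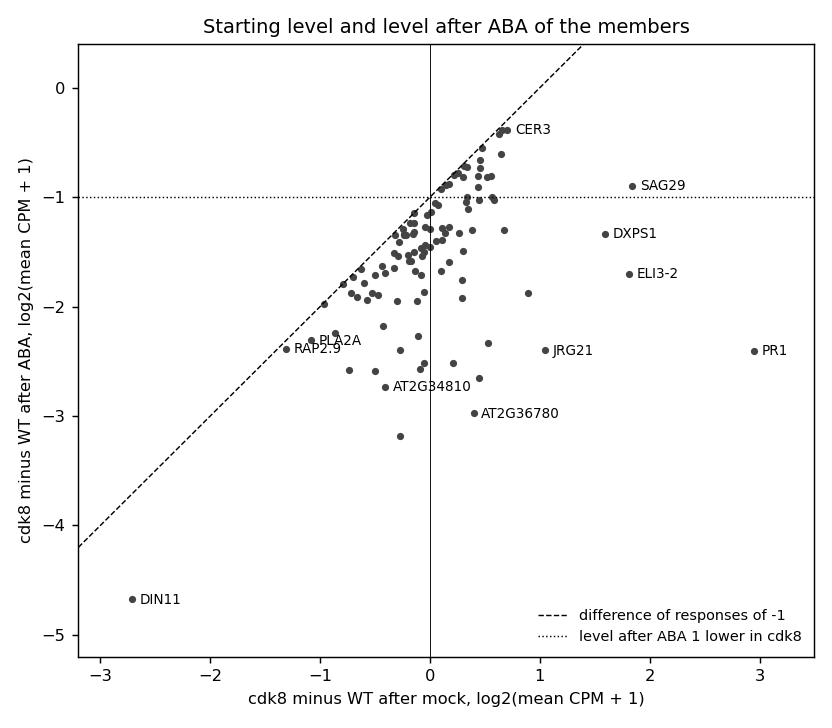
Each point is a member: the difference cdk8 minus wild type after mock on the horizontal axis and after ABA on the vertical axis, both in log2(mean CPM + 1). The dashed line is the limit of the rule; most points lie near 0 on the horizontal axis and under −1 (dotted) on the vertical axis, with PR1, SAG29, ELI3-2, DXPS1 and JRG21 to the right and DIN11 at the lower left.

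On the log2(mean CPM + 1) scale the start of SAG29 (SWEET15) was the furthest above wild type in cdk8 after that of PR1. SAG29 encodes a sugar exporter of the SWEET family that is induced in senescence and by osmotic stress. SAG29 had 33.3, 45.2 and 39.1 CPM in cdk8 ABA libraries, 75.8, 66.8 and 79.2 CPM in wild-type ABA libraries, 16, 16.8 and 9.68 CPM in cdk8 mock libraries and 3.51, 1.56 and 4.64 CPM in wild-type mock libraries. It was thus higher in cdk8 in all mock libraries and lower in cdk8 in all ABA libraries. Its fitted difference of responses was −3.17 ± 0.37 (log2, SE). The 5 members with the highest cdk8 start by the naming rule were PR1, SAG29, ELI3-2, DXPS1 and JRG21, with differences of 2.95, 1.84, 1.81, 1.59 and 1.04 after mock. In the fit, which adds a smaller constant, the order differed: the difference after mock was 3.68 ± 0.92 for DXPS1, 3.22 ± 1.11 for ELI3-2, 3.14 ± 1.34 for PR1 and 2.15 ± 0.29 for SAG29 (log2, SE), and DXPS1 and SAG29 were called. In ELI3-2 and DXPS1 this start was seen mainly in cdk8 mock replicates 1 and 3: ELI3-2 had 7.03, 0.219 and 4.91 CPM in cdk8 mock and 0.585, 0.0944 and 0.640 CPM in wild-type mock, and DXPS1 had 4.44, 0.439 and 2.99 CPM in cdk8 mock and 0.195, 0.0944 and 0.320 CPM in wild-type mock. The same libraries were highest for the summed immune markers, at 156 and 267 CPM, against 102 CPM in cdk8 mock replicate 2 and 67.6 to 94.8 CPM in wild-type mock. These sums include PR1, itself a member, with 59.2, 7.62 and 97.7 CPM in cdk8 mock replicates 1, 2 and 3. Most of the gap between replicates 1 and 2 was thus PR1, while replicate 3 was the highest without PR1 as well. The part of these markers in the result was not tested.

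At the other end were DIN11, RAP2.9, PLA2A, OCT5 and GSTU3, with start differences (cdk8 minus wild type) of −2.71, −1.31, −1.09, −0.96 and −0.86. DIN11, a dark-inducible gene for a 2-oxoglutarate-dependent oxygenase, had 0.912, 0.409 and 1.36 CPM in cdk8 ABA libraries, 74, 48.2 and 20.02 CPM in wild-type ABA libraries, 0.0529, 0.0549 and 0.385 CPM in cdk8 mock libraries and 8.43, 2.36 and 9.07 CPM in wild-type mock libraries. It was nearly silent in cdk8 under both treatments, and the cdk8 ABA mean was 1.88% of the wild-type ABA mean, the lowest share of any member. At such levels the added 1 CPM outweighs the measured CPM in cdk8 mock. The edgeR fit, which adds a far smaller constant, gave DIN11 a difference of responses of −0.65 ± 1.67, which was not called. Over all members the fitted difference was −1 or less in 96, between −1 and −0.5 in 9 and above −0.5 in 3. The 3 were GSTU3 (−0.47 ± 1.18), RAP2.9 (−0.33 ± 0.58) and ATHSP22.0 (0.47 ± 0.51), all with under 3 CPM in wild-type mock and a lower mean in cdk8 mock. GSTU3 and RAP2.9 thus had lower cdk8 means before ABA as well as after it, and the mock libraries of GSTU3 overlapped. ATHSP22.0, a small heat shock protein gene, had 0 counts in every cdk8 mock library and 0.146, 0 and 0.0533 CPM in wild-type mock libraries, at or under 3 counts each, so its fitted value depends on the constant added and no fold against mock is given. After ABA it had 1.71, 2.53 and 2.51 CPM in cdk8 and 17.56, 16 and 21.5 CPM in wild type.

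Of the 9 clade A PP2C genes 1 is a member, HAI2, and of the 23 dehydration effectors 2 are, LTI65 and RD20, while 108 of the 1032 genes with a wild-type response of at least 1.5 are members. HAI2 (AT1G07430, chromosome 1, 2280835 to 2282828), a clade A PP2C that damps ABA signalling, had 40.0, 48.0 and 49.6 CPM in cdk8 ABA libraries, 169, 155 and 161 CPM in wild-type ABA libraries, 0.741, 1.48 and 0.723 CPM in cdk8 mock libraries and 2.14, 2.22 and 2.93 CPM in wild-type mock libraries. The genotypes did not overlap under either treatment, and ABA raised HAI2 strongly in both. Its fitted difference of responses was −0.61 ± 0.30 and was not called. LTI65 (RD29B, AT5G52300), a desiccation-protective protein gene much used as an ABA marker, had 309.6, 378 and 366 CPM in cdk8 ABA libraries, 725, 651 and 465 CPM in wild-type ABA libraries, 5.24, 12.6 and 3.08 CPM in cdk8 mock libraries and 6.72, 2.69 and 5.23 CPM in wild-type mock libraries. Its mock libraries overlapped and its ABA libraries did not, and its fitted difference was −1.43 ± 0.54, not called. RD20, which encodes a lipid-droplet caleosin induced by dehydration, had 237, 195 and 213 CPM in cdk8 ABA libraries, 345, 368 and 606 CPM in wild-type ABA libraries, 21.4, 18.5 and 15.4 CPM in cdk8 mock libraries and 12.7, 7.27 and 16.1 CPM in wild-type mock libraries. RD20 was lower in all cdk8 ABA libraries, its mock libraries overlapped, and its fitted difference of −1.76 ± 0.35 was called.

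The rest of these pathways can be read from gene lists written for this work with earlier results of the same data known. In them a negative or positive difference is cdk8 minus wild type in the fitted response, and such calls were made for 2.85% and 2.37% of genes tested. Of 9 clade A PP2C genes tested, 1 was called for a negative difference (HAB1, −0.83 ± 0.15, not a member because of the limits) and none for a positive one, while all 9 were called higher after ABA in cdk8 (30.6% of genes tested) and in wild type (31.9%). Their median fitted difference was −0.39, beside 0.01 over all genes tested. Of 23 dehydration effectors, 2 were called for a negative difference, RD20 and RD22 (−0.95 ± 0.22), both raised by ABA in each genotype, and none for a positive one, with a median of 0.13. None of the 9 ABA receptors and none of the 12 ABA metabolism genes tested was called either way. Of 8 SnRK2 kinases and ABF factors, ABF1, which ABA raised in both genotypes, was called for a positive difference (0.89 ± 0.12) and none for a negative one. None of the 3 Mediator kinase module genes or of the 4 group X ERF factors, the group of RAP2.6, was called for a difference of responses. After ABA, however, 3 of the 4 group X ERF factors were called lower in cdk8 (13% of genes tested) and none higher. RAP2.6 was among them, at −0.99 ± 0.20 (log2, SE). SnRK2.6 was also called lower in cdk8 after ABA, at −0.56 ± 0.10, while 2 of its list of 8 were called higher.

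The transcription factor class held 12 members. It was assigned by words in the product name and need not hold every such factor, and RAP2.9 is not in it. NAC019, a stress NAC factor, had 115, 131 and 112 CPM in cdk8 ABA libraries, 212, 199 and 330.0 CPM in wild-type ABA libraries, 4.39, 2.85 and 3.76 CPM in cdk8 mock libraries and 2.29, 0.897 and 4.96 CPM in wild-type mock libraries. It did not overlap after ABA and overlapped after mock. DREB2C, of the family that binds the DRE element in heat and drought responses, had 12.1, 12.3 and 14 CPM in cdk8 ABA libraries, 51.0, 33.4 and 47.9 CPM in wild-type ABA libraries, 0.846, 0.823 and 0.674 CPM in cdk8 mock libraries and 1.75, 1.65 and 1.17 CPM in wild-type mock libraries. Here cdk8 was lower under both treatments, without overlap. Neither gene's fitted difference was called, at −1.61 ± 0.49 for NAC019 and −0.92 ± 0.34 for DREB2C. The list of 12 drought, cold and zinc finger factors that holds both had 3 calls for a positive difference, ZAT10, CBF1 and CBF2, and none for a negative one. In level, 7 of the 12 were called lower in cdk8 after ABA (13% of genes tested) and 1 higher. After mock 7 were called lower (8%) and 0 higher. After ABA the cdk8 level was lower for CBF1 (−0.80 ± 0.20), higher for CBF2 (0.62 ± 0.17) and not called for ZAT10 (−0.23 ± 0.14).

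BT2, a BTB and TAZ domain scaffold protein linked to sugar and nitrogen status, had the highest wild-type ABA level of the class, at 373 CPM per kb of exon. It had 167, 77.4 and 191 CPM in cdk8 ABA libraries, 688, 636 and 285 CPM in wild-type ABA libraries, 35.4, 35.3 and 38.3 CPM in cdk8 mock libraries and 53.0, 70.7 and 57.6 CPM in wild-type mock libraries. In each genotype its lowest ABA library was the one that stood apart. AT1G10585, a bHLH gene, ran the opposite way in wild type, with 28.1, 34.4 and 14.9 CPM in cdk8 ABA libraries, 104, 69.3 and 229 CPM in wild-type ABA libraries and at most 1.26 CPM in any mock library. MYB102 and SOM had almost no fragments after mock. MYB102, a MYB factor of wound and osmotic responses, had 15.4, 14.8 and 17.3 CPM in cdk8 ABA libraries and 55.8, 53.1 and 49.0 CPM in wild-type ABA libraries. SOM, a CCCH zinc finger that represses light-dependent germination, had 15.4, 19.4 and 11.69 CPM in cdk8 ABA libraries and 46.7, 41.9 and 42.1 CPM in wild-type ABA libraries. For both, mock libraries of either genotype held between 0.144 and 0.640 CPM. The other members of the class were AT1G71520, AT4G20970, ERF12, MYB2, MYB122 and ULT2, at 27.2% to 45.4% of the wild-type ABA level in cdk8. MYB122, a regulator of indole glucosinolate synthesis, was the only member among 10 genes for camalexin and indole glucosinolates, of which none was called for a difference of responses in either direction; 9 of the 10 were called lower in cdk8 after ABA, as were 13% of all genes tested.

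The 10 glycosyltransferase genes all encode enzymes of the UDP-dependent family that attach sugars to small molecules such as hormones and phenolics. All 10 had every cdk8 ABA library below every wild-type ABA library, and cdk8 reached between 12.2% and 42.0% of the wild-type ABA level. The rule favours such a gap, which 103 of the 108 members had, against 12.6% of genes tested, so it does not mark this class. After mock, cdk8 lay below wild type without overlap in 3 (UGT73C1, UGT75B1 and UGT76E11) and above it in 1 (AT2G36780), and 6 overlapped. Such gaps after mock were seen in 19.1% (below) and 18.9% (above) of genes tested. The fit called the mock difference in UGT73C1 and UGT75B1 but not in UGT76E11 or AT2G36780. AT2G36780 (chromosome 2, 15417490 to 15419154) had 18.3, 19.6 and 24.5 CPM in cdk8 ABA libraries, 182, 162 and 168 CPM in wild-type ABA libraries, 2.27, 2.63 and 2.17 CPM in cdk8 mock libraries and 1.997, 1.37 and 1.28 CPM in wild-type mock libraries. Its 3 libraries stayed close together in every group, and the wild-type ABA mean was 8.18 times the cdk8 ABA mean. Its fitted difference of responses was −3.74 ± 0.24. AT2G36770, with 91.3% identity over 1491 coding bases, lies 723 bases away in the same orientation, and UGT73C1 lies 3100 bases further along. AT2G36770 had 7.92, 7.92 and 8.03 CPM in cdk8 ABA libraries, 23.7, 19.5 and 21.6 CPM in wild-type ABA libraries, 2.64, 3.51 and 2.75 CPM in cdk8 mock libraries and 3.41, 2.64 and 4.16 CPM in wild-type mock libraries. Its response was also weaker in cdk8, on a smaller rise. Because reads shared by such copies may be assigned to neither or to the wrong copy, the split between AT2G36780 and AT2G36770 is uncertain.

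UGT74F2, which glucosylates salicylic acid, had 162, 203 and 164 CPM in cdk8 ABA libraries, 661, 607 and 666 CPM in wild-type ABA libraries, 43.4, 39.1 and 37.7 CPM in cdk8 mock libraries and 42.1, 43.0 and 39.5 CPM in wild-type mock libraries. The start was alike in the genotypes and the ABA libraries were far apart, with a fitted difference of −1.93 ± 0.15. UGT75B1 had 69.5, 69.0 and 76.9 CPM in cdk8 ABA libraries, 241, 263 and 246 CPM in wild-type ABA libraries, 7.88, 5.49 and 6.26 CPM in cdk8 mock libraries and 10.7, 10.9 and 9.65 CPM in wild-type mock libraries. UGT85A1, which can glucosylate the cytokinin zeatin, had 105, 182 and 86.8 CPM in cdk8 ABA libraries and 329.5, 250.1 and 361 CPM in wild-type ABA libraries. The highest cdk8 library of UGT85A1 was replicate 2, which stood apart. UGT73C1 had 6.24, 9.33 and 7.57 CPM in cdk8 ABA libraries and 49.1, 42.9 and 61.7 CPM in wild-type ABA libraries. UGT87A2, UGT76E11, UGT73C7 and AT5G49690 reached 42.0%, 32.8%, 32.9% and 20.5% of the wild-type ABA level in cdk8. UGT76E11 overlaps AT3G46668 on the opposite strand over 1809 bases and the counting used no strand, so its level is uncertain.

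**Figure D4:**
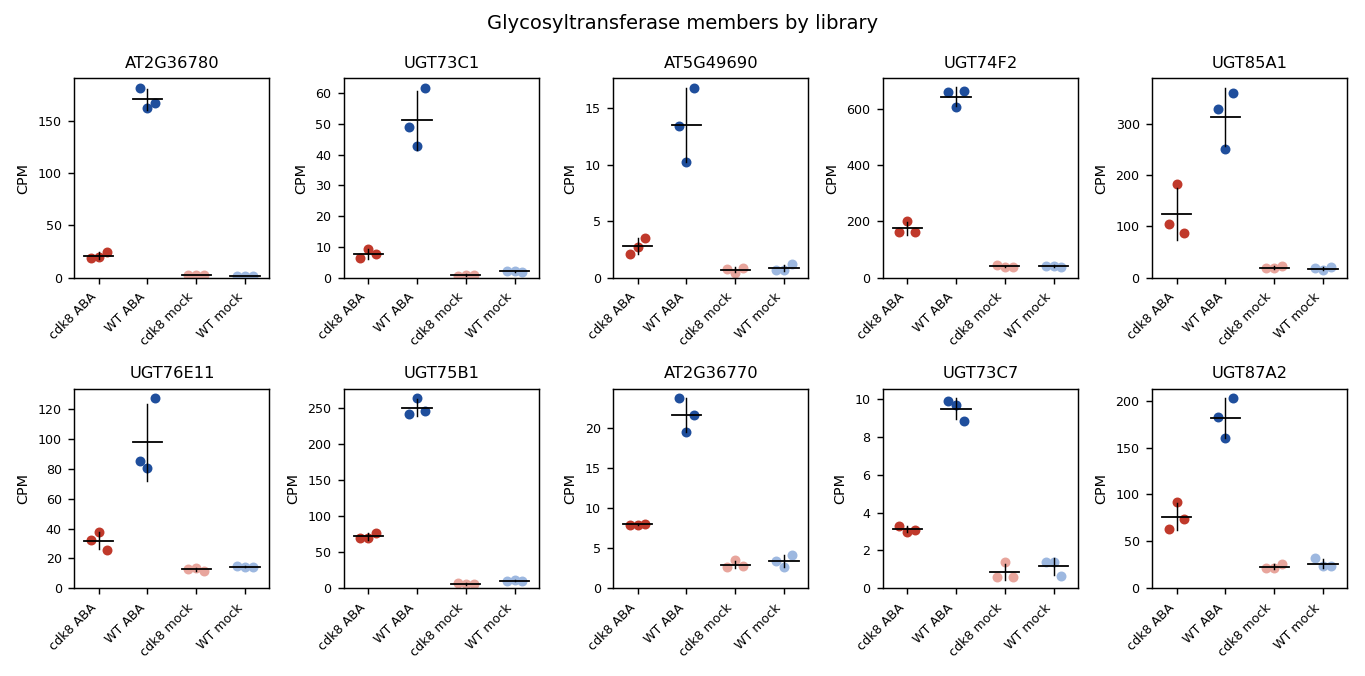
CPM of the 10 glycosyltransferase members in each library (points), with the group mean (horizontal bar) and SD (vertical bar, n = 3), for cdk8 ABA, wild-type ABA, cdk8 mock and wild-type mock; each panel has its own axis from 0. In every panel the 3 cdk8 ABA points lie below the 3 wild-type ABA points, and AT2G36780 shows the widest gap.

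Other enzymes that modify small molecules were similar. CYP76C2, a cytochrome P450 of a family that oxidises monoterpenols, had 6.42, 9.19 and 7.45 CPM in cdk8 ABA libraries, 51.8, 38.6 and 55.2 CPM in wild-type ABA libraries, 2.33, 1.81 and 0.964 CPM in cdk8 mock libraries and 1.90, 0.378 and 1.71 CPM in wild-type mock libraries. CYP710A1, a sterol desaturase, reached 40.3% of the wild-type ABA level in cdk8. CYP81G1 reached 4.22%, but it overlaps MYBR1 on the opposite strand over 791 bases, and MYBR1 held up to 518 CPM, so its value is uncertain. PMAT1, which adds malonyl groups to phenolic glucosides, had 103, 130.2 and 109 CPM in cdk8 ABA libraries, 447, 378 and 499 CPM in wild-type ABA libraries, 14.7, 12.2 and 12.6 CPM in cdk8 mock libraries and 23.04, 19.8 and 17.3 CPM in wild-type mock libraries. It was lower in cdk8 in all ABA and all mock libraries, and the fitted difference of responses was −1.45 ± 0.19. NSP5, a nitrile specifier protein of glucosinolate breakdown, had the highest wild-type ABA level of all members, at 1203 CPM per kb of exon. It had 529, 655 and 591 CPM in cdk8 ABA libraries, 1897, 1582 and 1553 CPM in wild-type ABA libraries, 214, 192 and 204 CPM in cdk8 mock libraries and 229, 182 and 221 CPM in wild-type mock libraries. So NSP5 started alike and ended at 35.3% of the wild-type level.

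The oxidoreductase class had 13 members, all without overlap after ABA, at 1.88% to 52.1% of the wild-type ABA level in cdk8. Lack of overlap after ABA was shared by 103 of the 108 members (12.6% of genes tested) and does not mark the class. AT2G34810 and AT1G30700 encode berberine bridge enzyme-like proteins. AT2G34810 had 25.02, 26.6 and 34.0 CPM in cdk8 ABA libraries, 188, 157 and 240.3 CPM in wild-type ABA libraries, 11.5, 11.5 and 12.04 CPM in cdk8 mock libraries and 15.3, 14.6 and 17.5 CPM in wild-type mock libraries. It was thus lower in every cdk8 mock library as well, by a smaller step, but the fit did not call that mock difference (−0.44 ± 0.16). AT1G09500, a Rossmann-fold reductase, had 35.7, 22.4 and 36.0 CPM in cdk8 ABA libraries, 121, 113 and 120.4 CPM in wild-type ABA libraries, 9.63, 6.53 and 4.10 CPM in cdk8 mock libraries and 2.53, 1.42 and 5.55 CPM in wild-type mock libraries. Its mock libraries overlapped, with a higher mean in cdk8. JRG21 and AT5G05600 are related oxygenases that hydroxylate jasmonic acid and so lower its activity. JRG21 had 10.2, 6.02 and 7.62 CPM in cdk8 ABA libraries, 28.6, 25.4 and 84.8 CPM in wild-type ABA libraries, 3.44, 1.097 and 7.47 CPM in cdk8 mock libraries and 1.95, 0.991 and 1.33 CPM in wild-type mock libraries. AT5G05600 had 40.1, 58.5 and 38.5 CPM in cdk8 ABA libraries and 91.5, 73.4 and 188 CPM in wild-type ABA libraries. Both were highest in wild-type ABA replicate 3. Of a list of 20 jasmonate genes, OPR3 (0.64 ± 0.16) was called for a positive difference of responses and LOX2 (−1.19 ± 0.20) for a negative one. LOX2 was not called higher with ABA: its fitted response was −1.06 ± 0.14 in cdk8, called lower, and 0.13 ± 0.14 in wild type, not called. AOX1D, a mitochondrial alternative oxidase, reached 32.7% of the wild-type ABA level; of 7 mitochondrial stress genes NDA1 (−0.76 ± 0.20) was called for a negative difference and none for a positive one. NDA1 fell with ABA, by 2.47 ± 0.14 in cdk8 and by 1.70 ± 0.14 in wild type (log2, SE).

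Several members with roles in sugar use, amino acid breakdown and senescence are described together; no list of such genes was counted, and they were grouped with their values known. SUS1, a sucrose synthase that splits sucrose, had 247, 303 and 215 CPM in cdk8 ABA libraries, 936, 661 and 877 CPM in wild-type ABA libraries, 30.9, 26.3 and 26.8 CPM in cdk8 mock libraries and 42.7, 31.8 and 37.8 CPM in wild-type mock libraries. SUS1 was lower in every cdk8 library of either treatment and still rose strongly with ABA, with a fitted difference of −1.38 ± 0.22. The fit did not call its difference after mock (−0.42 ± 0.16). SUS1 was the only 1 of 12 hypoxia genes called for a negative difference of responses, and none was called for a positive one. TRE1, the trehalase, had 10.6, 11.5 and 10.04 CPM in cdk8 ABA libraries and 32.1, 27.9 and 29.4 CPM in wild-type ABA libraries. DIN2, a dark-inducible beta-glucosidase, had 16.3, 16.3 and 30.3 CPM in cdk8 ABA libraries, 176, 110.1 and 87.9 CPM in wild-type ABA libraries, 7.30, 4.66 and 5.83 CPM in cdk8 mock libraries and 6.28, 5.43 and 6.93 CPM in wild-type mock libraries. Mock levels of DIN2 overlapped, and cdk8 ended at 16.8% of the wild-type ABA level.

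BCAT-1, a mitochondrial transaminase of branched-chain amino acid breakdown, had 31.0, 28.2 and 31.4 CPM in cdk8 ABA libraries, 143, 126 and 152 CPM in wild-type ABA libraries, 14.6, 15.9 and 15.8 CPM in cdk8 mock libraries and 23.5, 20.8 and 18.8 CPM in wild-type mock libraries. Its libraries were tight within each group, and cdk8 was lower throughout, with a fitted difference of −1.87 ± 0.14. THA1, a threonine aldolase, had 13.9, 6.69 and 15.8 CPM in cdk8 ABA libraries and 61.3, 63.6 and 20.2 CPM in wild-type ABA libraries. Like BT2, THA1 was lowest in the ABA library of each genotype that stood apart. TAT7, a tyrosine transaminase, reached 56.5% of the wild-type ABA level in cdk8 from a higher start. The senescence markers SAG13 and AtS40-3 reached 29.4% and 26.7%, and DMP1, a senescence-associated membrane protein, 30.4%. SAG13, AtS40-3 and DMP1 are all among the 24 genes that leave the list without wild-type ABA replicate 3.

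**Figure D5:**
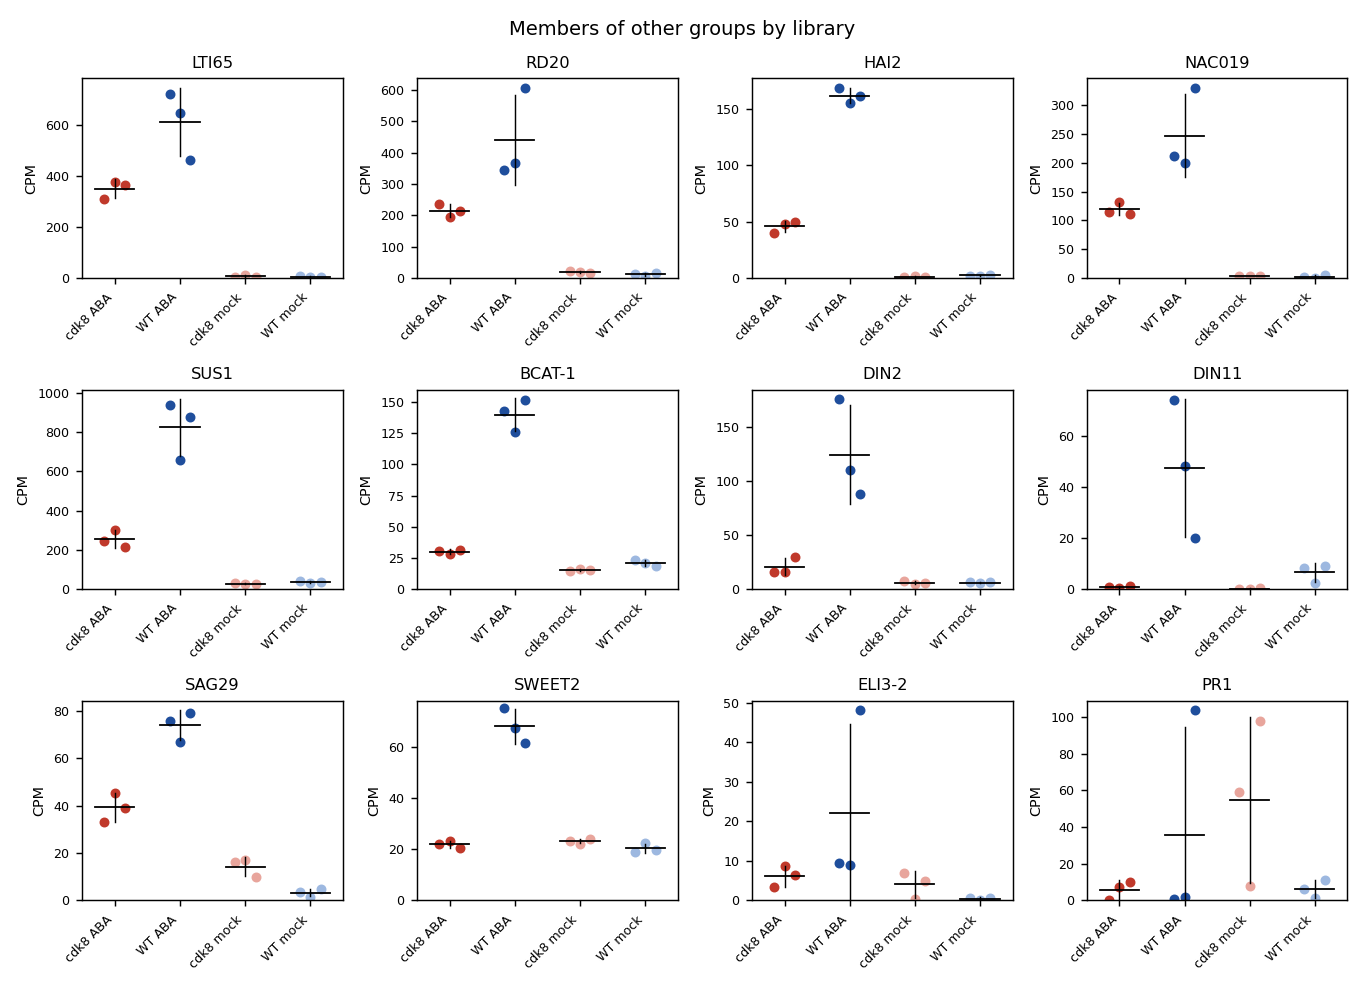
CPM of 12 members in each library (points), with the group mean (horizontal bar) and SD (vertical bar, n = 3, drawn no lower than 0), in the order cdk8 ABA, wild-type ABA, cdk8 mock and wild-type mock; each panel has its own axis from 0. SWEET2 shows no rise in cdk8, SAG29 a higher start in cdk8, DIN11 almost no expression in cdk8, and ELI3-2 and PR1 a wild-type ABA mean pulled up by replicate 3.

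The class of transporters and channels had 12 members and the mildest differences after ABA among the classes with at least 10 members, with a median of −0.81; the median after mock was 0.28. No member of the class overlapped after ABA, as was so for 103 of the 108 members (12.6% of genes tested). SWEET2 had 21.9, 23.1 and 20.4 CPM in cdk8 ABA libraries, 75.1, 67.2 and 61.5 CPM in wild-type ABA libraries, 23.2, 22.2 and 23.8 CPM in cdk8 mock libraries and 18.995, 22.3 and 19.6 CPM in wild-type mock libraries. ABA raised SWEET2 in wild type, and the cdk8 values were alike with and without ABA. TDT, the tonoplast malate carrier, had 252, 290.4 and 292 CPM in cdk8 ABA libraries, 538, 439 and 459 CPM in wild-type ABA libraries, 197, 192 and 197 CPM in cdk8 mock libraries and 169, 169 and 151 CPM in wild-type mock libraries. Every cdk8 library of TDT was above wild type after mock and below it after ABA. The fit called the difference after ABA (−0.89 ± 0.10) and not that after mock (0.26 ± 0.10). NRT1.7 and NRT1.8 move nitrate between organs through phloem and xylem. NRT1.7 had 136, 153 and 127 CPM in cdk8 ABA libraries and 374, 294 and 446 CPM in wild-type ABA libraries. NRT1.8 had 5.73, 11.8 and 9.39 CPM in cdk8 ABA libraries and 36.2, 25.2 and 45.3 CPM in wild-type ABA libraries. The amino acid permease AAP1 and the ABC transporter ABCC4 reached 60.7% and 60.1% of the wild-type ABA level, and the organic cation carrier OCT5 reached 23.9% from a lower start. The remaining members (AT3G22910, AT1G71140, AT5G15240, AT3G20300 and ATGLR1.2) reached 38.7% to 64.3%.

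The defence class held 5 members, PR1, HCHIB, AT2G43580, BAP2 and RPS2. PR1, the salicylic acid marker, had the most negative difference between responses, −5.35, yet its values were 0.401, 7.10 and 10.2 CPM in cdk8 ABA libraries, 0.921, 1.92 and 104 CPM in wild-type ABA libraries, 59.2, 7.62 and 97.7 CPM in cdk8 mock libraries and 6.19, 1.42 and 11.1 CPM in wild-type mock libraries. Wild-type ABA replicate 3 alone put PR1 above the limit, the groups overlapped after ABA, and PR1 is no member without that library. Outside the class, ELI3-2, an aldehyde reductase of the cinnamyl alcohol dehydrogenase family induced by elicitors, had 3.36, 8.70 and 6.38 CPM in cdk8 ABA libraries and 9.49, 8.88 and 48.2 CPM in wild-type ABA libraries. NATA1, which acetylates ornithine and other amines, had 0.584, 0.335 and 0.741 CPM in cdk8 ABA libraries, 9.05, 8.15 and 22.2 CPM in wild-type ABA libraries, 1.43, 0.549 and 2.17 CPM in cdk8 mock libraries and 4.38, 0.425 and 0.800 CPM in wild-type mock libraries. Its libraries were apart after ABA and overlapped after mock. In 12 members wild-type ABA replicate 3 was over 2 times the other wild-type ABA libraries; 9 of these still did not overlap with cdk8 after ABA. They were PR1, ELI3-2, JRG21, DXPS1, NATA1, AT1G10585, AT4G20970, AT1G76470, AT2G17850, AT1G15010, GSTU3 and AT5G05600, and the part that the immune markers of this library have in their values was not tested. Of the other defence members, the basic chitinase gene HCHIB had 47.3, 68.1 and 47.0 CPM in cdk8 ABA libraries and 109.9, 107 and 116 CPM in wild-type ABA libraries, which were close together. The chitinase gene AT2G43580, BAP2 and the resistance gene RPS2 stayed under 8 CPM in every library. Of 16 salicylic acid and immune genes tested, 2 were called higher and 11 lower with ABA in cdk8, and 0 higher and 6 lower in wild type. Of all genes tested, 30.6% were called higher in cdk8 and 31.9% in wild type. The share called lower was not counted, so nothing is read from the counts of lower genes. FMO1 (−3.58 ± 0.73) and WRKY70 (−1.45 ± 0.34) were called for a negative difference and none for a positive one. Neither is a member, and neither was called higher with ABA: FMO1 had a fitted response of −3.01 ± 0.53 in cdk8, called lower, and 0.57 ± 0.49 in wild type, not called, and WRKY70 had −1.87 ± 0.25 in cdk8, called lower, and −0.42 ± 0.24 in wild type, not called.

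Among lipid and surface genes, CER3 of wax alkane synthesis had 154, 174 and 146 CPM in cdk8 ABA libraries, 169, 179 and 273 CPM in wild-type ABA libraries, 103, 119 and 103 CPM in cdk8 mock libraries and 64.0, 67.0 and 67.2 CPM in wild-type mock libraries. Its ABA libraries overlapped, and the start was higher in cdk8 without overlap. Of 19 wax, cutin and suberin genes tested, CER3 (−1.199 ± 0.21), CER1 (−0.86 ± 0.15), FAR4 (−0.68 ± 0.17) and GPAT4 (−0.56 ± 0.11) were called for a negative difference and none for a positive one; ABA raised all 4 in wild type. PLA2A, a lipid acyl hydrolase of the patatin type, had 14.7, 33.7 and 18.3 CPM in cdk8 ABA libraries, 147, 115 and 80.3 CPM in wild-type ABA libraries, 9.996, 11.8 and 19.7 CPM in cdk8 mock libraries and 40.8, 24.9 and 25.7 CPM in wild-type mock libraries. CSLG2, a cellulose synthase-like gene, had 1.53, 2.53 and 3.21 CPM in cdk8 ABA libraries and 24.2, 13.01 and 24.2 CPM in wild-type ABA libraries.

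KTI1, a Kunitz trypsin inhibitor that restrains cell death, had 187, 292 and 183 CPM in cdk8 ABA libraries, 600.2, 531 and 758 CPM in wild-type ABA libraries, 85.6, 55.0 and 81.7 CPM in cdk8 mock libraries and 85.8, 96.8 and 97.7 CPM in wild-type mock libraries. The cdk8 value was lower in every library of either treatment, by little after mock, where the fit did not call the difference (−0.34 ± 0.19). The kinases WNK4, AT4G32250 and AT5G24080 reached 53.6%, 47.2% and 33.1% of the wild-type ABA level in cdk8. Members of varied other function, none overlapping after ABA, were the glyoxalase gene GLYI7 (17.97%), the phosphoinositide phosphatase gene 5PTASE11 (27.5%), the acyltransferase gene GPAT2 (31.2%), the pectin methylesterase-type gene AT2G45220 (31.8%), the aldo-keto reductase gene ChlAKR (33.8%), the carboxypeptidase gene AT5G22860 (34.3%), the aspartyl protease gene AT4G16563 (38.5%), the separase gene ESP (48.3%), the glycine-rich protein gene AT5G46730 (53.4%) and the subtilase gene SBT3.5 (56.3%), each as a share of the wild-type ABA level. AT3G60420, AT5G53710, AT3G04000, AT5G54240 and AT5G24570, whose roles are not described here, reached 24.5% to 43.8%. Within the GH3 family, whose members conjugate auxin and other acids to amino acids, AT5G13370 reached 76.3% and BRU6 31.9%; BRU6 shares 90.01% of 1812 coding bases with GH3.4. The lists of heat shock (11 tested) and seed maturation (7) genes had no call in either direction, and those of iron (14 tested, 2 negative and 1 positive), phenylpropanoids (17, 1 and 1) and WRKY factors (57, 1 and 2) had no members. More genes were called lower than higher with ABA in the iron list (11 against 1 in cdk8, and 10 against 3 in wild type) and in the phenylpropanoid list (10 against 3 in each genotype). The share of all genes called lower with ABA was not counted.

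The members were spread over all chromosomes, with 27, 24, 14, 16 and 27 on chromosomes 1 to 5. In 7 pairs, made of 11 genes, members lay within 20 kb of each other. Besides the UGT73C cluster above, these were AT1G10580 and AT1G10585 (202 bases apart), DXPS1 and DMP1 (5335), ELI3-1 and ELI3-2 (1375), and AT5G16960 and AT5G16980 (3143). AT5G16980 shares 91.1% to 93.6% of its aligned coding bases with 3 neighbours of the 2-alkenal reductase family, so its counts are uncertain. ORS1, DMP1, NRT1.8, AT4G00750, AT5G39520 and WNK4 overlap other genes by 44 to 383 bases, and UGT75B1, HCHIB and RPS2 overlap genes on the opposite strand by 1273, 861 and 3285 bases, so their levels are uncertain.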

How the data were processed

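RNA-seq was run on 12 libraries of whole seedlings, 3 per group, and groups were joined to columns by the library number in the labels. The cdk8 ABA replicate 3 had library number 19, while the other libraries were numbered from 1 to 11. The labels do not say why, and whether that library was handled differently was not tested. Without cdk8 ABA replicate 3 the rule picked 118 genes, 105 of them members. The authors deposited a table of fragment counts per gene. Per the file headers it was made with featureCounts 1.4.6, counting read pairs over the exons of each gene, with TAIR10 gene models from Ensembl, and no option set for strand or multiply mapped reads, so that defaults applied. FastQC, TopHat2, featureCounts and TAIR10 are named in the submitters' processing notes; aligner settings were not given in the sources used here. The deposited exon length per gene is in bases. A fragment within an overlap of 2 genes counts for neither by default.

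CPM were computed as counts divided by the column total, without other scaling, and levels as log2(mean CPM + 1). Counts of 33602 genes were filtered with filterByExpr, which left 21151, scaled by TMM and fitted with the quasi-likelihood test of edgeR 4.0.16 in R 4.3.3, with 1 mean per group over all 12 libraries. The common biological coefficient of variation was 0.126. Calls used a Benjamini-Hochberg adjusted p under 0.05 over all genes tested and measure the spread between libraries whose independence the labels do not state. Standard errors are the absolute log2 change over the square root of F. The fit was also run on simulated counts, with a common spread for all genes and wild-type means in both genotypes. Such counts lack the spread of single genes and the libraries that stood apart, and nothing is read from them here. In the shallowest library 3 counts were 0.170 CPM, a floor that covers counting error only.

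Symbols, products and promoters came from RefSeq TAIR10.1, which matched 32835 genes and all 108 members. The file's exons had the same start and end in that annotation in 80.8% of cases. Near copies were found with BLAST 2.17.0 at 90% identity over 50% of the coding sequence. Product classes were assigned by words in the product name. The members, gene lists, classes and naming rule were chosen with earlier results of these data known. That rule took the 12 most negative differences of responses with at least 10 CPM and no overlap after ABA, the 8 highest wild-type ABA levels, up to 3 per list and class, the genes beside each limit and the 5 highest and 5 lowest cdk8 starts. Other members are named because the whole list is accounted for, and were picked with their values known. Alternatives were other scalings, pseudocounts, means, filters, limits, DESeq2 1.42.0, limma-voom of limma 3.58.1, and libraries left out.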

Additional observations from a re-analysis of the deposited data

How the results depend on the processing

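The number of members depends on its limits: a difference of responses of −0.8 or less gave 170 genes and −1.2 or less gave 70. TMM scaling gave 139, RLE 141, a pseudocount of 0.5 gave 130 and one of 5 gave 76, of which 73 were among the 108. Leaving out 1 library gave 94 to 134 members; 103 to 105 of the 108 then had no overlap after ABA, the median difference after ABA ran from −1.60 to −1.35 and after mock from −0.07 to 0.03. With a pseudocount of 5 the median level difference of members after ABA was −1.204. At an adjusted p under 0.01, 41 members were called for a weaker response, 3 higher in cdk8 after mock and 7 lower. limma-voom called 7 higher after mock. Without both libraries that stood apart, 19 were called higher and 18 lower after mock. Over single libraries left out, calls for a weaker response ran from 55 to 71, higher in cdk8 after mock from 5 (without wild-type mock replicate 2) to 14, with 7 without cdk8 mock replicate 1 or wild-type mock replicate 3, and lower after mock from 7 (without wild-type mock replicate 1) to 14. The cause of these changes was not tested. The share of all genes called was not counted at these settings, so these counts of members are not set against it.

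Fitted differences of single genes were compared between settings only for the members picked by the naming rule. Among these, the ones that changed sign belong to members with few fragments in cdk8 mock. The difference of responses of ATHSP22.0 was −0.36 with DESeq2, −1.74 with limma-voom and −0.74 (without wild-type mock replicate 1) to 1.05 over single libraries left out. The difference of responses of GSTU3 ran from −1.18 to 0.30 (without wild-type ABA replicate 3) and was 0.015 without wild-type mock replicate 2. The difference of responses of RAP2.9 ran from −0.67 to 0.025 (without wild-type ABA replicate 3), the difference of responses of AT5G24080 from −1.22 to 0.17 and the difference of responses of DIN11 from −1.07 to 0.91 (both without cdk8 mock replicate 3).

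The columns carry replicate numbers, so a replicate block was added after seeing the data. It called 60 members for a weaker response, 10 higher and 12 lower in cdk8 after mock. Here too the share of all genes called was not counted. Same-numbered libraries correlated between −0.294 and 0.157 in their deviations from the group mean. Between cdk8 ABA replicate 2 and wild-type ABA replicate 3 the correlation was 0.348. These values show no pairing by number but cannot exclude one, because the deviations of 3 libraries from their mean are tied to each other.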
